A study of Mus musculus with 23 samples.

Results

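Forkhead (Fox) and Sox genes were followed across ESC-derived and native stem cell populations. The members are the probes whose gene symbol is Fox followed by a letter and a number, or Sox followed by a number, without Sox2, Sox7 and Sox17. They are 53 of 18097 gene symbols and 83 of the 25697 probes on the array, 61 for 40 Fox genes and 22 for 13 Sox genes, and 15 of the 53 genes have several probes. Foxf1a and Foxo3a are the array's names for Foxf1 and Foxo3.

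The study set LKS cells (Lin-ckit+Sca-1+, the marrow fraction that holds hematopoietic stem cells) made from mouse ESCs beside native LKS cells, using 23 bead arrays. ESC-derived LKS cells were sorted at day 7 of embryoid body differentiation from Synthecon rotating vessels (8 arrays), Spinner flasks (3 arrays) and Static flasks (3 arrays). Native LKS cells came from bone marrow (BM, 3 arrays, mice labelled 10 weeks old) and from fetal liver (FL, 3 arrays, embryonic day 15), and undifferentiated ESCs were read at day 0 (3 arrays). All groups share the 129X1/SvJ x 129S1 background, and all ESC-derived cells come from the single R1 line, which was expanded on inactivated mouse embryonic fibroblasts. Only the native cells went through lineage depletion ahead of the sort, so the gate of the day 7 cells was set by c-kit and Sca-1 alone. Whether arrays of a group are separate cultures or animals rests on the word biological in the labels and methods, and the methods name fewer replicates per group than the Synthecon arrays here, so a p-value here covers array-to-array spread, which may be technical.

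Forkhead proteins bind DNA through a winged helix domain, and Sox proteins through an HMG box that bends DNA. Both families are large sets of tissue-restricted regulators: Foxa proteins open chromatin in endoderm, FoxO proteins are held out of the nucleus by PI3K-Akt signalling and protect quiescent hematopoietic stem cells, SoxD and SoxE proteins act in cartilage and neural crest, and SoxF proteins in endothelium. In ESCs, Sox proteins act together with the octamer-binding factor Oct4.

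The sorted populations differed in more than the culture vessel. Over 5 markers of pluripotent cells (Pou5f1, Nanog, Zfp42, Dppa5a, Tdgf1), the mean log2 signal per array was 12.04 to 12.92 in Synthecon cells, 12.54 to 12.76 in Spinner cells, 8.00 to 12.49 in Static cells, 6.13 to 6.16 in BM, 6.18 to 6.42 in FL and 12.36 to 12.66 in undifferentiated ESCs. Over 5 markers of blood cells it was 7.33 to 7.66 in Synthecon, 7.38 to 7.45 in Spinner, 7.52 to 9.46 in Static, 10.25 to 11.09 in BM, 10.07 to 10.79 in FL and 7.71 to 7.77 in undifferentiated ESCs. The blood markers Ptprc, Spi1 and Cd34 were above background (detection p under 0.01) on no Synthecon or Spinner array, and Ptprc on no Static array. The other 2 of the 5 blood markers, Laptm5 and Coro1a, were above background on every Synthecon and Spinner array. On every Static array 2 of the 5 were above background, and likewise on every undifferentiated ESC array. Static replicate 1 stood apart from the other Static arrays, with a pluripotent mean of 12.49, against 9.42 in replicate 2 and 8.00 in replicate 3. The odd-numbered and the even-numbered Synthecon replicates form 2 sets, and arrays of a set nearly repeat each other within a slide. There they differed by a median of 0.0681 to 0.0784 over 4643 bright probes, whereas pairs in the other groups differed by 0.0947 (Spinner replicates 1 and 2) to 0.457. Synthecon replicates 1 and 2 lie on another slide than the rest, and across slides arrays of a set differed by 0.212 to 0.233, less than arrays of different sets across slides (0.273 to 0.293) but more than those of different sets on 1 slide (0.172 to 0.185) and than Spinner arrays across slides (0.149 to 0.154), so these 2 arrays are not near repeats of their sets. Each set was counted as 1 sample, and Synthecon means are given with n = 2. In bulk RNA of this kind, fewer cells of a type and less RNA per cell cannot be told apart.

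The stretch of 250 bases before the RefSeq transcription start is shown for 4 Sox genes on which the results turn: Sox15 and Sox21, called higher in dynamic culture than in Static, Sox5, called lower there, and Sox12, which separated all ESC-derived cells from native cells. Sequences are from RefSeq on GRCm38.p6, written 5′ to 3′ on the strand of the gene, with CpG dinucleotides in capitals.
Sox15 (chr11:69654787-69655036, plus strand): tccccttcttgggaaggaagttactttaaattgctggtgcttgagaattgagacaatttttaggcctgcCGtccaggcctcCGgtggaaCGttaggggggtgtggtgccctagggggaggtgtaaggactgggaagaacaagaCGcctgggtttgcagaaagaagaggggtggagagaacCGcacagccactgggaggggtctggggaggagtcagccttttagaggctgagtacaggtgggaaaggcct
Sox21 (chr14:118237031-118237280, minus strand): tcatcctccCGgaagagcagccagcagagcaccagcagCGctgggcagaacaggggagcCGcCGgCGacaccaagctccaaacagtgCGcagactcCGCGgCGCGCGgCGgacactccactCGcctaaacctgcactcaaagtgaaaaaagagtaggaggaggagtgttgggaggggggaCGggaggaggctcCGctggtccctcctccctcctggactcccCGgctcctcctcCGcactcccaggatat
Sox5 (chr6:143947107-143947356, minus strand): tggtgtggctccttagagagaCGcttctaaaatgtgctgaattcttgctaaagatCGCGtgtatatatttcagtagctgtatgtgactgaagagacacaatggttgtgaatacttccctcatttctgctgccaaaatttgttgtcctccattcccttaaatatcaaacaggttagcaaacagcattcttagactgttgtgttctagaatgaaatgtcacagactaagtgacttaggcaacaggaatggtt
Sox12 (chr2:152398047-152398296, minus strand): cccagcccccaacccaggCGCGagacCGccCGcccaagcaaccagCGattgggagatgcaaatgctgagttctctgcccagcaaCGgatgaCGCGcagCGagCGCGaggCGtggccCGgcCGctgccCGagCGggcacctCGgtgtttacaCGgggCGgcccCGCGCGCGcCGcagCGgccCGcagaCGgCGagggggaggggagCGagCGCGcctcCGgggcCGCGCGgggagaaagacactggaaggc

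The Sox15 window held 5 CpG dinucleotides and the Sox5 window 3, whereas the Sox21 window held 17 and the Sox12 window 35. The median was 13 over the 45 promoters found for 35 of the 53 member genes, and 6 over all 32851 promoters of the table, so Sox21 and Sox12 lay above both medians and Sox15 and Sox5 below both. Known cores were searched on both strands, namely TGTTTAC for forkhead factors, CATTGT for Sox factors, ATGCAAAT for the octamer that Oct4 binds, CCGGAAG for factors of the Ets family, AGATAA for GATA factors, GGGCGG for the GC box, CCAAT for the box of that name, and TATAAA for the TATA box. The Sox12 window held a forkhead core 107 to 101 bases before the start, an octamer 195 to 188 bases before it, a CCAAT box and 3 GC boxes, of which the 2 farthest from the start overlap each other by 2 bases. The Sox5 window held a Sox core 154 to 149 bases before the start, the Sox21 window an Ets core 242 to 236 bases before it, and the Sox15 window none of these letters. Over the member promoters, 4.44% held the forkhead core and 11.1% the Sox core, against 3.17% and 10.7% of all promoters, and 2.22% held the octamer, against 1.60%. The GC box was in 55.6% of member promoters, against 32.7% of all, and the CCAAT box in 42.2%, against 33.8%. The Ets core was in 2.22% of member promoters, against 6.91% of all, the GATA core in 6.67%, against 9.99%, and the TATA box in 8.89%, against 12.4%. A match is a description of letters and not of a bound site.

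Of the 83 probes, 26 (31.3%, for 22 genes) were above background on every array of at least 1 group, beside 46.9% of all probes on the array. Another 50 probes were above background on no array. The shares that follow ask for all 8 arrays in Synthecon but for 3 in each other group, so the rule is stricter in Synthecon. The share read on every array of a group was 18.1% in Synthecon (15 probes), 25.3% in Spinner (21), 15.7% in Static (13), 12.0% in BM (10), 15.7% in FL (13) and 24.1% in undifferentiated ESCs (20), beside 37.1%, 39.1%, 35.5%, 36%, 35.8% and 37.5% of all probes in the same order. Per array, 18 to 22 member probes were above background in Synthecon and in Static and 21 to 23 in Spinner, against 11 to 14 in BM and 14 to 16 in FL, and 23 to 25 were in undifferentiated ESCs. Foxj2, Foxj3, Foxm1, Foxn3 and Foxp1 were above background on all 23 arrays. The 25 genes above background nowhere are Foxa2, Foxb1, Foxb2, Foxd1, Foxd2, Foxd3, Foxe1, Foxe3, Foxf2, Foxi1, Foxi2, Foxl1, Foxl2, Foxn1, Foxn4, Foxo3a, Foxo4, Foxo6, Foxp2, Foxp3, Sox1, Sox3, Sox6, Sox9 and Sox30, whose group means ran from 5.43 to 6.68. Such a probe has only a bound, and its differences are counted below but not read as levels. Another 6 genes (Foxa1, Foxc1, Foxc2, Foxf1a, Foxr1 and Sox18) were above background on some arrays but on every array of no group.

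**Figure D1:**
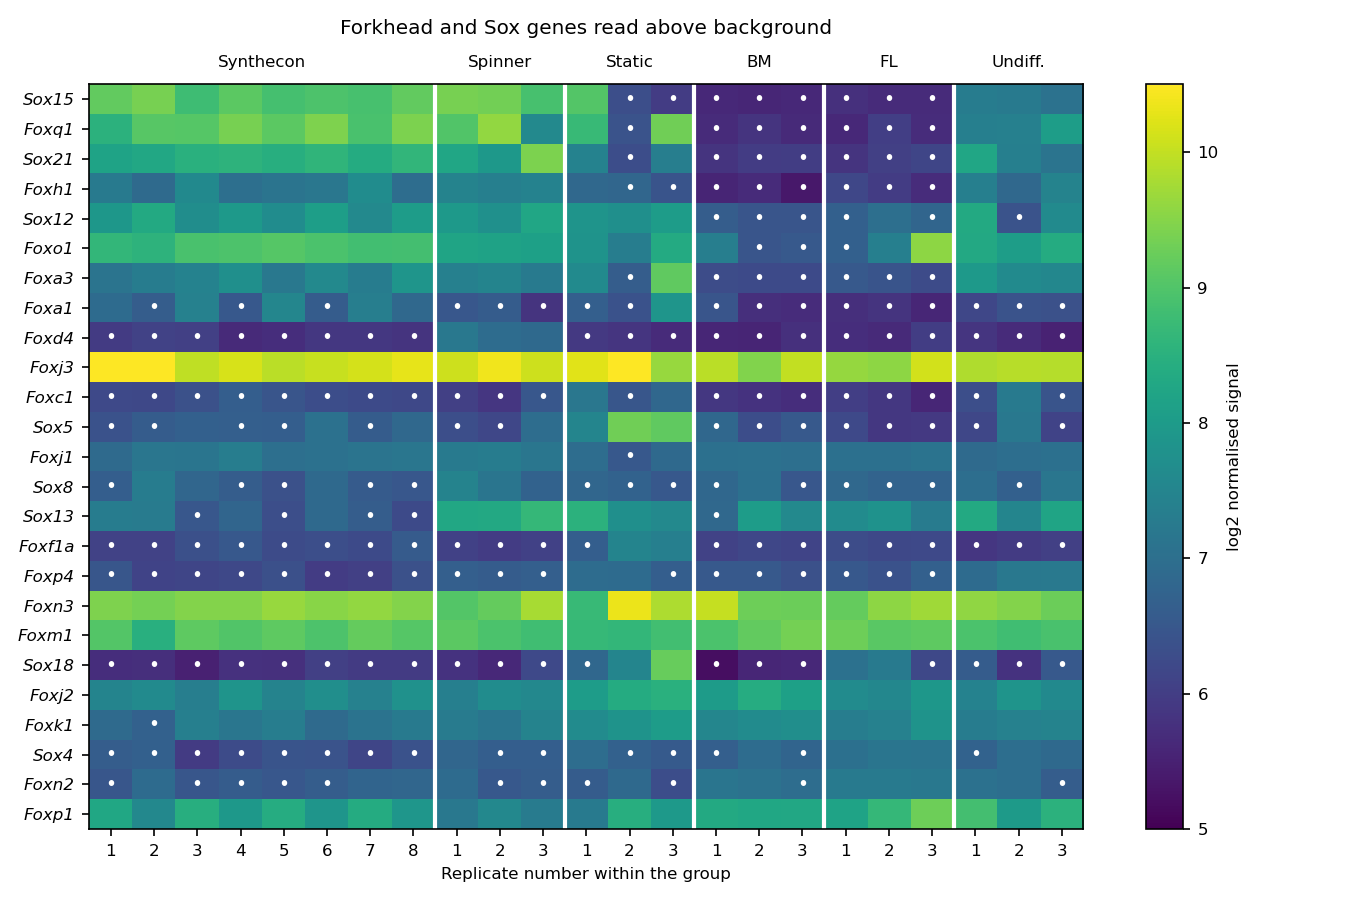
Heat map of log2 normalised signal for 21 of the 22 Fox and Sox genes read above background on every array of a group and for Sox18, Foxf1a, Foxa1 and Foxc1 (rows, brightest probe each, ordered by the difference between dynamic culture and native cells) on 23 arrays (columns, by group and replicate). White dots mark values not above background: Sox15, Foxq1, Sox21 and Foxh1 carry dots on all 6 native arrays and on no Synthecon or Spinner array.

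Across the 6 groups, 28 of 83 member probes (25 genes) differed in limma's F test at an adjusted p of 0.05, beside 43.5% of all probes. The members were then set against each other in pairs of conditions, where dynamic culture averages the Synthecon and Spinner means, native cells average the BM and FL means, and all values are log2 signals. Deposited values carry an offset of about 60.2 intensity units, which compresses differences between dim probes. Where a side had no array above background, a fold is given as a bound (at least N-fold) wherever that bound is over 1, and the log2 value beside it is a difference of measured signals. The bound is computed with each value of that side raised to the lowest signal of any probe above background on its array.

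The question of how far dynamic culture brought ESC-derived cells to native LKS cells gave 23 called member probes, 15 higher and 8 lower in dynamic culture (background 37% of all probes in either direction, 18.9% higher and 18.2% lower). These are 27.7% of member probes in either direction, 18.1% higher and 9.64% lower. The largest differences were in Sox15, Foxq1, Sox21 and Foxh1, none of which a native array read above background. Sox12, Foxo1 and Foxa3 were also higher, whereas Foxp1, Sox4, Foxn2, Foxk1 and Foxj2 were lower.

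Sox15, the only SoxG gene and one that mouse ESCs express, had 8.79 to 9.38 in Synthecon cells (median 9.03), 9.38, 9.33 and 8.90 in Spinner cells, 9.04, 6.32 and 5.99 in Static cells, 5.64, 5.58 and 5.63 in BM, 5.76, 5.67 and 5.67 in FL, and 7.31, 7.25 and 7.07 in undifferentiated ESCs. Every dynamic array lay above every undifferentiated ESC array, which in turn lay above every native array, and Static replicate 1 lay among the dynamic arrays. The dynamic mean exceeded the native mean by 3.47 ± 0.38 (SE, adjusted p = 2.3e-06, limma), at least 4.54-fold. It exceeded that of undifferentiated ESCs by 1.92 ± 0.46 (adjusted p = 0.014, lost without undifferentiated replicate 3 at 0.068 and without Synthecon replicates 2, 4, 6 and 8 at 0.053). Within a slide, Spinner cells were 3.71 above BM on slide 1, and Synthecon cells 3.67 above BM and 3.58 above FL on slide 2.

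Sox21, a SoxB2 gene known as a repressor in neural progenitors, had 8.20 to 8.63 in Synthecon cells (median 8.47), 8.25, 7.92 and 9.42 in Spinner, 7.44, 6.30 and 7.35 in Static, 5.83, 5.98 and 6.00 in BM, 5.84, 6.04 and 6.14 in FL, and 8.25, 7.38 and 7.11 in undifferentiated ESCs. The dynamic arrays stood above all native arrays and overlapped with undifferentiated replicate 1. The difference from native cells was 2.52 ± 0.27 (adjusted p = 1.9e-06), at least 2.93-fold.

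Foxq1, a forkhead gene known from hair follicle and stomach, had 8.54 to 9.44 in Synthecon cells (median 9.09), 9.01, 9.60 and 7.60 in Spinner, 8.70, 6.41 and 9.31 in Static, 5.68, 5.83 and 5.65 in BM, 5.63, 6.01 and 5.70 in FL, and 7.37, 7.40 and 8.06 in undifferentiated ESCs. Native arrays were the lowest, and the Spinner and Static arrays spread widely. Dynamic culture exceeded native cells by 3.17 ± 0.43 (adjusted p = 1.8e-05), at least 3.96-fold.

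Foxh1 is the DNA-binding partner of Smad2 and Smad4 that carries Nodal signals to genes. It had 6.91 to 7.66 in Synthecon cells (median 7.14), 7.46, 7.37 and 7.44 in Spinner, 6.87, 6.81 and 6.43 in Static, 5.57, 5.68 and 5.35 in BM, 6.18, 5.98 and 5.69 in FL, and 7.38, 6.86 and 7.45 in undifferentiated ESCs. The dynamic and undifferentiated arrays overlapped, and native arrays lay below all others. The difference from native cells was 1.58 ± 0.14 (adjusted p = 2e-07), at least 1.30-fold, and the other Foxh1 probe gave 1.37. The Nodal pathway genes around it moved the same way: of 11 measured genes of a Foxh1 and Nodal list, 8 were higher in dynamic culture than in native cells, none was lower and 3 did not pass (18.9% of all probes were higher), with a median of 2.50 beside -0.01 over all probes. They included Tdgf1 (the Nodal co-receptor Cripto, also on the pluripotent marker list) at 3.85 (at least 7.44-fold) and Acvr2b (an activin and Nodal receptor) at 3.27. The pluripotent markers moved with this list, and their part in it was not tested.

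**Figure D2:**
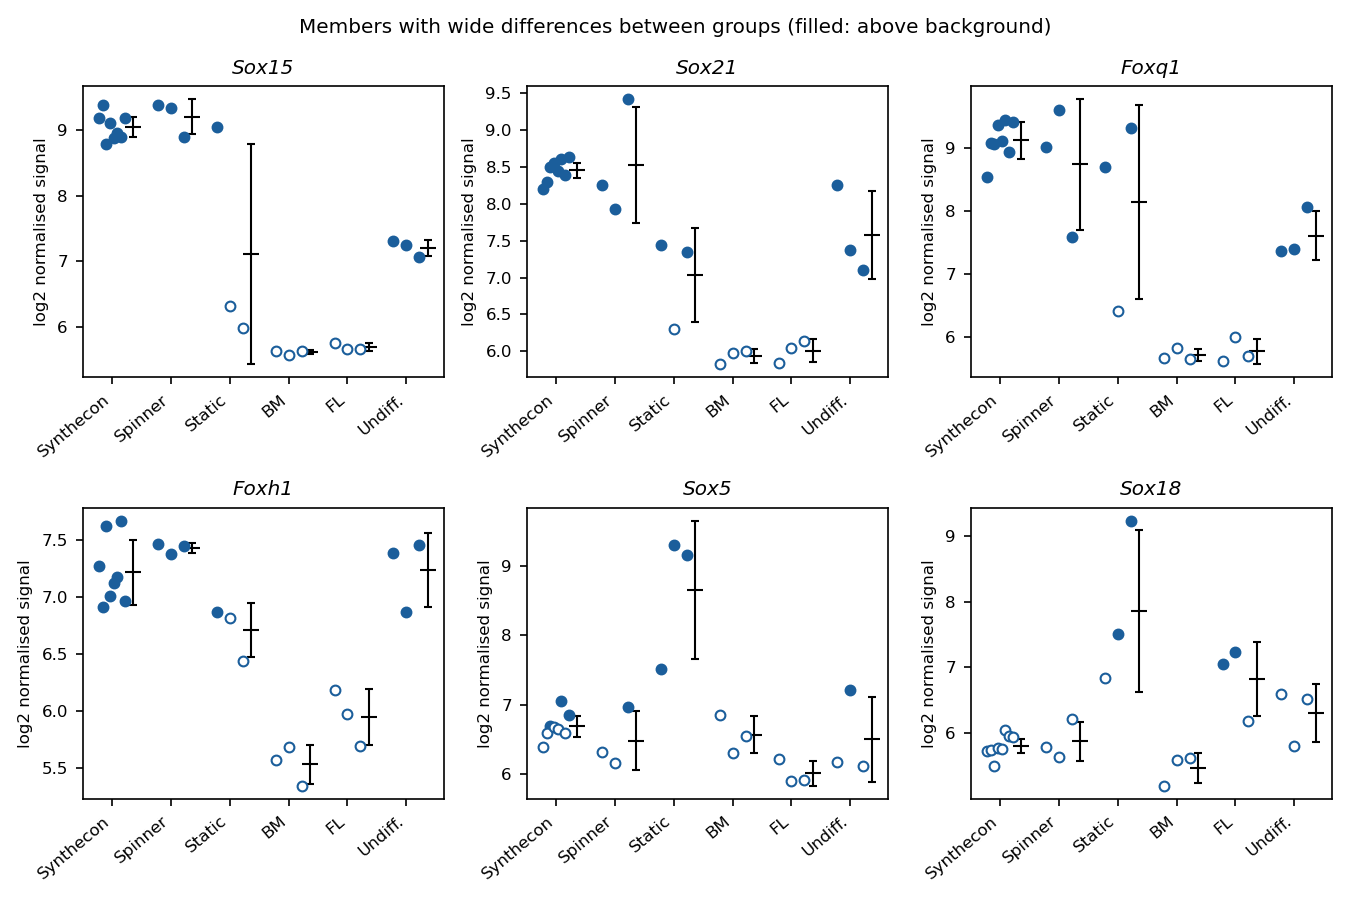
Log2 normalised signal of Sox15, Sox21, Foxq1, Foxh1, Sox5 and Sox18 on each array by group (filled points above background, open points not), with mean and SD beside each group (Synthecon n = 2 set means, other groups n = 3 arrays). Sox15 lies at 8.79 or more on every dynamic array and on Static replicate 1, whereas Sox5 and Sox18 are highest in Static replicates 2 and 3.

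Sox12, a SoxC gene of many embryonic tissues, was higher in all ESC-derived cells. It had 7.60 to 8.34 in Synthecon cells (median 7.95), 7.98, 7.76 and 8.26 in Spinner, 7.86, 7.73 and 8.04 in Static, 6.62, 6.45 and 6.44 in BM, 6.69, 7.00 and 6.79 in FL, and 8.34, 6.40 and 7.64 in undifferentiated ESCs. No day 7 array overlapped with a native array, and the undifferentiated arrays spread over the whole range. The difference from native cells was 1.29 ± 0.25 in dynamic culture (adjusted p = 0.00055) and 1.21 ± 0.29 in Static culture (adjusted p = 0.0047).

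Among Foxa genes, Foxa3, which acts with its relatives in liver and gut endoderm, had 7.12 to 7.86 in Synthecon cells (median 7.38), 7.39, 7.48 and 7.24 in Spinner, 7.63, 6.62 and 9.16 in Static, 6.27, 6.23 and 6.24 in BM, 6.54, 6.44 and 6.26 in FL, and 7.97, 7.62 and 7.55 in undifferentiated ESCs. Static replicate 3 was the highest array and Static replicate 2 the lowest of the ESC-derived arrays. Foxa3 exceeded native cells by 1.08 ± 0.30 in dynamic culture (adjusted p = 0.0093, at least 1.38-fold) and by 1.48 ± 0.35 in Static (adjusted p = 0.0045, at least 1.82-fold, and 0.80 without Static replicate 3). Foxa1, known as a pioneer factor in endoderm, exceeded native cells by 0.80 ± 0.24 in dynamic culture (adjusted p = 0.014, no bound over 1) and 1.13 ± 0.28 in Static (adjusted p = 0.0057, at least 1.02-fold), with 7.86 on Static replicate 3 and 5 of 8 Synthecon arrays above background. With the slide as a block neither Foxa1 call held (adjusted p = 0.054 in dynamic culture and 0.095 in Static), and the dynamic call was lost without Synthecon replicates 1, 3, 5 and 7 (0.64, adjusted p = 0.097). Of 13 measured genes of a Foxa endoderm list, 6 were above background on every array of a group. In dynamic culture 3 of the 13 were higher and 1 lower than in native cells, and in Static 3 were higher and 1 lower. This is near the 37% and 26.7% called among all probes. Gata6, an endoderm GATA factor, had the largest difference in both, at 3.89 in dynamic culture (at least 6.84-fold) and 6.44 in Static (at least 40.2-fold). Amn, a visceral endoderm gene (3.17), and Gsc, a homeobox factor of the organizer (1.97, at least 1.55-fold), followed in dynamic culture. In Static, Ttr, the transthyretin gene of yolk sac and liver, followed at 3.97 and Apoa1, an apolipoprotein gene, at 1.77. The lower gene was Afp in both, which was below background on both sides and so has no level. Ttr, Afp, Alb, Apoa1 and Apoa2 are on both this list and the endoderm marker list, whose mean log2 signal was 6.27 to 6.71 in Synthecon, 6.17 to 6.81 in Spinner, 6.77 to 8.24 in Static, 5.99 to 6.04 in BM, 6.51 to 6.97 in FL and 5.88 to 5.96 in undifferentiated ESCs, and its part in the Foxa values was not tested.

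The members tied to blood stem cells were not uniformly lower in ESC-derived cells. Foxo1, a FoxO gene needed with its relatives for stem cell quiescence, had 8.55 to 9.06 in Synthecon cells (median 8.89), 8.22, 8.16 and 8.13 in Spinner, 7.83, 7.32 and 8.36 in Static, 7.35, 6.45 and 6.54 in BM, 6.70, 7.38 and 9.57 in FL, and 8.33, 8.06 and 8.39 in undifferentiated ESCs. FL replicate 3 was the highest of all 23 arrays, and the other FL arrays lay below all dynamic arrays. Dynamic culture exceeded native cells by 1.18 ± 0.38 (adjusted p = 0.022). Without FL replicate 3 the difference was 1.60. The call was lost without FL replicate 1 (0.88, adjusted p = 0.052), FL replicate 2 (1.05, adjusted p = 0.055) or either Synthecon set (adjusted p = 0.066 and 0.061), and with the slide as a block (0.94, adjusted p = 0.056). Foxo3a and Foxo4 were above background on no array, with group means of 5.55 to 6.00 for Foxo3a and 5.55 to 5.80 for Foxo4, so these probes set no level for those genes in any of the populations.

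Of 16 measured FoxO target genes, 4 were higher and 3 lower in dynamic culture than in native cells, with a median of 0.09 beside -0.01 over all probes, and these 7 calls are near the 37% among all probes. Rag1 (part of the recombinase of lymphocyte receptors) was at -2.10 (at least 2.80-fold lower), whereas Trp53inp1, a stress-response gene, was at 2.64. Between Static and native cells, 5 were higher and 4 lower (26.7% of all probes were called), among them Rag1 (-2.17, at least 2.71-fold lower) and Irs2, an insulin receptor substrate (1.90). The blood markers were lower in both comparisons, 5 of 5, whereas the FoxO targets went both ways. The part of the blood cell difference in these values was not tested.

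Foxp1, a regulator of B cell and monocyte development, had 7.57 to 8.46 in Synthecon cells (median 8.11), 7.20, 7.56 and 7.29 in Spinner, 7.25, 8.44 and 7.95 in Static, 8.35, 8.27 and 8.31 in BM, 8.18, 8.67 and 9.28 in FL, and 8.86, 8.00 and 8.53 in undifferentiated ESCs. Spinner arrays lay below every native array and Synthecon arrays overlapped with them. Dynamic culture was lower than native cells (difference -0.78 ± 0.24, adjusted p = 0.015, lost at 0.093 without Synthecon replicates 2, 4, 6 and 8).

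Sox4, a SoxC gene needed for B cell development, was near background, above it on 0 of 8 Synthecon arrays, 1 of 3 Spinner, Static and BM arrays each, all 3 FL arrays and 2 of 3 undifferentiated ESC arrays. Its means were 6.36 ± 0.10 in Synthecon (SD, n = 2), 6.71 ± 0.10 in Spinner, 6.74 ± 0.20 in Static, 6.80 ± 0.14 in BM, 7.10 ± 0.05 in FL and 6.87 ± 0.13 in undifferentiated ESCs (SD, n = 3 each). Dynamic culture minus native cells was -0.41 ± 0.10 (adjusted p = 0.0038). Foxp3, the regulator of regulatory T cells, and Sox6, which silences embryonic globin genes in red cells, were above background on no array in any group.

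Foxm1, which drives G2 and M phase genes, was read on all arrays, with 8.46 to 9.20 in Synthecon cells (median 9.04), 9.12, 8.93 and 8.82 in Spinner, 8.69, 8.63 and 8.83 in Static, 8.95, 9.17 and 9.36 in BM, 9.29, 9.09 and 9.13 in FL, and 8.93, 8.81 and 8.93 in undifferentiated ESCs. All groups lay within a narrow band, with Static at its lower end. Static minus native cells was -0.45 ± 0.14 (adjusted p = 0.026) by the brighter probe and -0.51 by the other (adjusted p = 0.027). That call did not hold without Static replicate 1 or 2, BM replicate 3 or FL replicate 1 (adjusted p 0.051 to 0.081). Of 11 measured FoxM1 target genes, 6 were above background on every array of a group. In dynamic culture 2 of the 11 were higher and 3 lower than in native cells, and in Static none was higher and 3 lower. Among all probes, 37% and 26.7% were called in these comparisons. Cdc25b, a mitotic phosphatase, was at -1.96 in dynamic culture (at least 2.68-fold lower) and -1.54 in Static, and Birc5 (survivin) at -0.65 in dynamic culture and -0.86 in Static.

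Of the other forkhead genes lower in dynamic culture than in native cells, Foxn2 gave -0.48 ± 0.12 (adjusted p = 0.0053), Foxk1 -0.39 ± 0.12 (adjusted p = 0.020) and Foxj2 -0.38 ± 0.14 (adjusted p = 0.040). The Foxj2 call did not hold under 8 of 17 omissions of a sample, nor the Foxk1 call without Spinner replicate 2 or Synthecon replicates 2, 4, 6 and 8 (adjusted p 0.054 and 0.093). The 6 Foxj3 probes disagreed. The brightest gave 0.44 (adjusted p = 0.052), the next 0.44 (adjusted p = 0.016) and a dimmer one -0.30 (adjusted p = 0.049), so no direction is given for this gene.

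**Figure D3:**
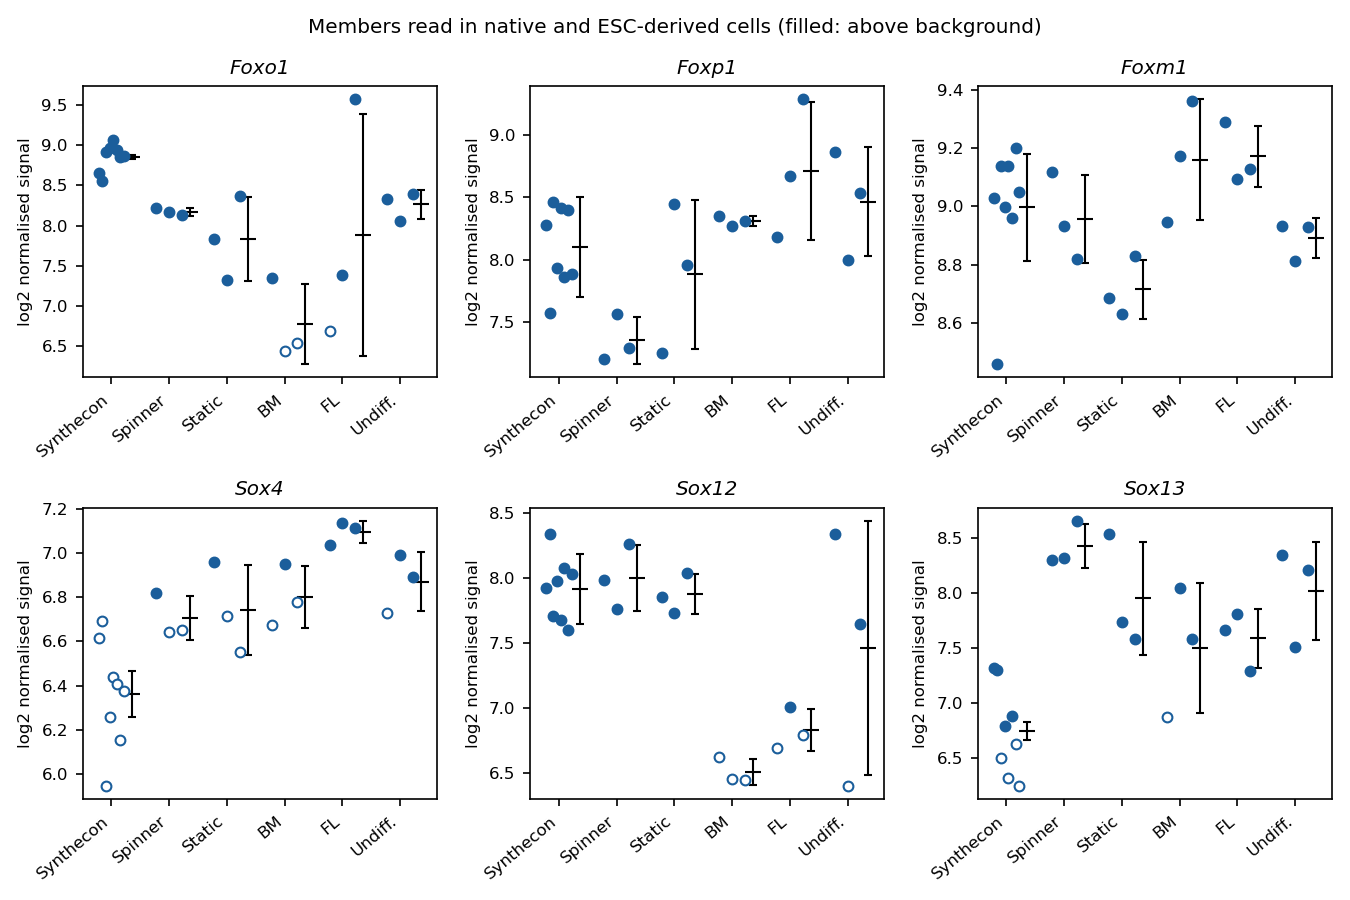
Log2 normalised signal of Foxo1, Foxp1, Foxm1, Sox4, Sox12 and Sox13 on each array by group (filled points above background, open points not), with mean and SD beside each group (Synthecon n = 2 set means, other groups n = 3 arrays). Foxm1 stays between 8.46 and 9.36 on all arrays, Sox12 separates day 7 cells from native cells, and Foxo1 in FL runs up to 9.57 in replicate 3.

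Static and native cells differed in 21 member probes, 17 higher and 4 lower in Static (background 26.7%, with 12.9% higher and 13.8% lower). The higher members shared Foxq1, Sox15, Sox21, Foxh1, Sox12, Foxa1 and Foxa3 with dynamic culture, which was set against the same native arrays, and also held Sox5, Sox18, Foxf1a, Foxc1, Foxp4 (0.34, no bound over 1) and Sox9 (below background on all arrays), which were not called in dynamic culture. In Static, Sox15 and Foxh1 were above background on replicate 1 alone and Foxa1 on replicate 3 alone. The Static means behind their folds thus include arrays below background. Whether the changes differ is read below from dynamic culture against Static. Foxq1 was higher by 2.39 ± 0.49 (adjusted p = 0.0017, at least 2.30-fold), Sox15 by 1.45 ± 0.44 (adjusted p = 0.022, at least 1.13-fold, and 0.49 without Static replicate 1), Sox21 by 1.06 ± 0.32 (adjusted p = 0.020, at least 1.07-fold) and Foxh1 by 0.96 ± 0.16 (adjusted p = 0.00027, no bound over 1). Sox21 was no longer called without Static replicate 1 or 3 (adjusted p = 0.097 and 0.095). Each SE rests on a spread shared by all groups. The Static SD was 1.53 for Foxq1, 1.67 for Sox15 and 1.23 for Sox18, against 0.10, 0.03 and 0.23 in BM. For Sox12 the Static SD was 0.16. Where the Static arrays lie wide apart, the SE does not show their own spread.

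**Figure D4:**
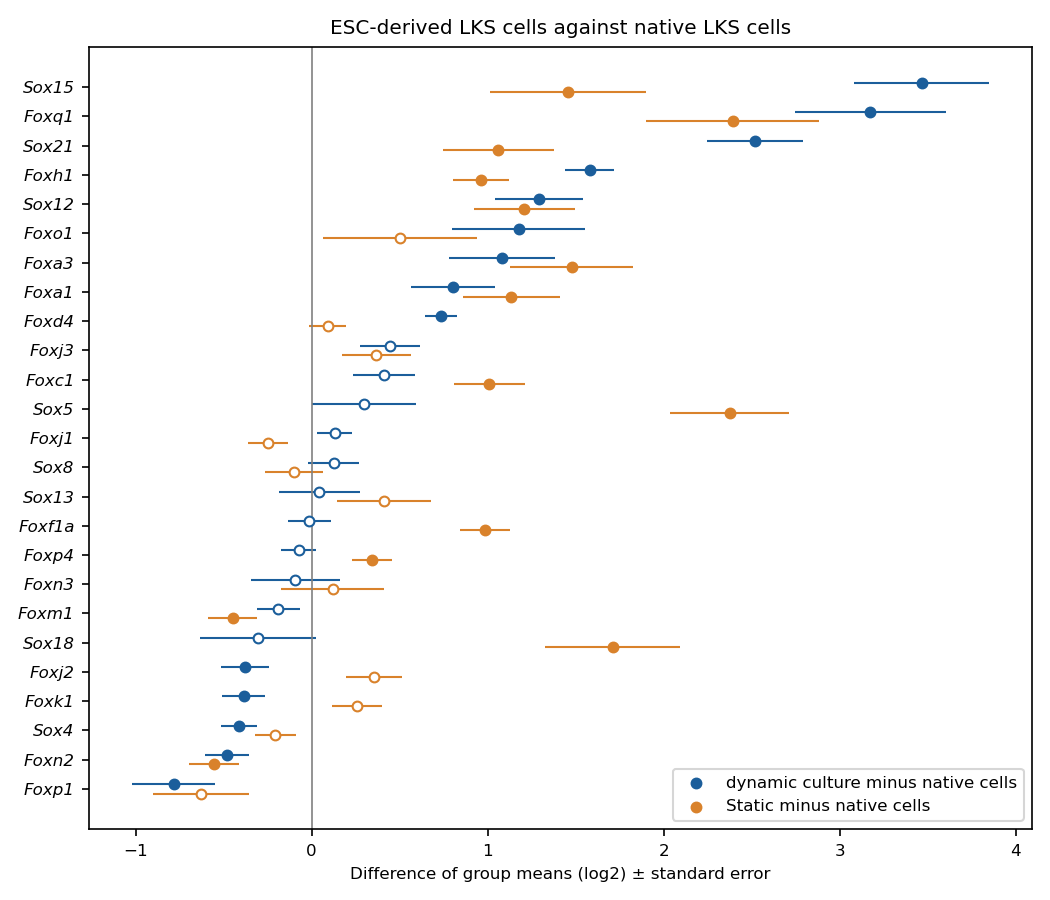
Difference of group means in log2 with its standard error, for dynamic culture minus native cells (blue) and Static minus native cells (orange), for the 25 genes of the heat map (filled points called at an adjusted p of 0.05, open points not). Sox5, Sox18, Foxf1a and Foxc1 are called in Static and not in dynamic culture, at 2.37, 1.71, 0.98 and 1.01, while Sox15 is at 3.47 in dynamic culture and 1.45 in Static.

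The comparison of stirred or rotated culture with Static culture gave 13 called member probes, 5 higher and 8 lower in dynamic culture (15.7% of member probes, with 6.02% higher and 9.64% lower). This is near the background of 14.2% of all probes, with 7.64% higher and 6.55% lower. The count was 6 without Static replicate 2, 16 without Static replicate 1 and 0 by the two-sample test of the methods. Sox15, Sox21, Foxh1, Foxd4 and Foxj1 were higher in dynamic culture, and Sox5 (3 of its 4 probes), Sox18, Foxf1a, Foxj2, Foxk1 and Foxp4 were lower. Static replicates were wide apart in several of these genes, so the arrays matter as much as the means.

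Sox15 was higher in dynamic culture by 2.01 ± 0.46 (adjusted p = 0.0084), and by 1.45 to 2.97 when single arrays were left out. The call was lost without Static replicate 2 (adjusted p = 0.072) or replicate 3 (adjusted p = 0.061), and the difference was 2.97 without replicate 1, the Static array that read 9.04. Sox21 was higher by 1.46 ± 0.33 (adjusted p = 0.0076), but 1.09 without Static replicate 2 (adjusted p = 0.067). Within slides, Spinner cells exceeded Static cells by 1.68 in Sox15 and 1.22 in Sox21 on slide 1, and Synthecon cells exceeded Static replicate 3 by 2.98 and 1.17 on slide 3. Foxh1 was higher by 0.62 ± 0.17 (adjusted p = 0.021), which did not hold without Static replicate 2 (adjusted p = 0.053), Static replicate 3 (0.12) or Synthecon replicates 1, 3, 5 and 7 (0.097). The other Foxh1 probe was not called here, though its unadjusted p was under 0.05 (limma). The pluripotent markers, 5 of 5 of them higher in dynamic culture with a median of 2.56, moved with these genes, and their part was not tested. Of the 11 Foxh1 and Nodal genes, 5 were higher and 2 lower in dynamic culture than in Static (7.64% of all probes were higher and 6.55% lower). Among them were Gdf3, a TGF-beta ligand (2.82), and Lefty1, a Nodal inhibitor (2.40).

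Sox5, a SoxD factor that works with Sox6 and Sox9 in cartilage, had 6.39 to 7.05 in Synthecon cells (median 6.66), 6.31, 6.16 and 6.97 in Spinner, 7.51, 9.31 and 9.16 in Static, 6.85, 6.31 and 6.55 in BM, 6.21, 5.90 and 5.91 in FL, and 6.17, 7.21 and 6.11 in undifferentiated ESCs. All 3 Static arrays lay above all other arrays. Dynamic culture minus Static was -2.08 ± 0.35 (adjusted p = 0.0013), and -1.75 to -2.65 when samples were left out. Static exceeded native cells by 2.37 ± 0.34 (adjusted p = 6.6e-05), at least 3.30-fold, and undifferentiated ESCs by 2.16 ± 0.39 (adjusted p = 0.0023). Within slides, Spinner minus Static was -2.17 on slide 1 and Synthecon minus Static -2.41 on slide 3.

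Of 10 measured SoxE and SoxD cartilage genes, 4 were higher in Static than in native cells and none lower (12.9% of all probes were higher). The list's median was 0.04 beside -0.03 over all probes, and only 2 of the 10 genes were above background on every array of a group. The largest differences were in Col9a2 (a collagen IX chain) at 2.70 (at least 4.45-fold), Matn1 (a cartilage matrix protein) at 1.53 (at least 1.55-fold) and Hapln1 (a hyaluronan link protein) at 1.51 (at least 1.17-fold), with no native array above background in any of them. Col9a2 and Col2a1 (the collagen II chain) were higher in dynamic culture than in native cells, by 2.60 (at least 4.14-fold) and 1.41 (at least 1.59-fold), and dynamic culture was lower than Static in Hapln1 (-1.54, at least 1.33-fold) and Matn1 (-1.15). Sox9 itself was above background on no array. Of 10 measured genes of a SoxE neural crest and glial list, 5 were above background on every array of a group. In Static 3 of the 10 were higher and 1 lower than in native cells (26.7% of all probes were called). They were led by Ednrb (an endothelin receptor of neural crest) at 2.80, Twist1 (a mesenchymal factor) at 2.43 (at least 4.24-fold) and Mbp (myelin basic protein) at -1.37.

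Sox18, a SoxF gene of blood and lymphatic endothelium, had 5.50 to 6.05 in Synthecon cells (median 5.77), 5.80, 5.64 and 6.21 in Spinner, 6.84, 7.51 and 9.23 in Static, 5.21, 5.59 and 5.63 in BM, 7.06, 7.24 and 6.18 in FL, and 6.59, 5.81 and 6.53 in undifferentiated ESCs. It was above background on Static replicates 2 and 3 and on FL replicates 1 and 2 alone. Dynamic culture minus Static was -2.02 ± 0.40 (adjusted p = 0.0034), at least 2.15-fold lower, and -1.33 without Static replicate 3. Static exceeded native cells by 1.71 ± 0.38 (adjusted p = 0.0031), or by 1.02 without Static replicate 3 and 2.22 without replicate 1. Within slides, Spinner minus Static was -1.46 on slide 1 and Synthecon minus Static -3.40 on slide 3.

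Foxf1a, a gene of splanchnic mesoderm and its vessels, had 6.09 to 6.57 in Synthecon cells (median 6.28), 6.06, 5.98 and 6.06 in Spinner, 6.64, 7.49 and 7.36 in Static, 6.08, 6.18 and 6.12 in BM, 6.29, 6.19 and 6.22 in FL, and 5.88, 5.96 and 6.03 in undifferentiated ESCs. Only Static replicates 2 and 3 were above background. Dynamic culture minus Static was -0.997 ± 0.15 (adjusted p = 0.00047, at least 1.33-fold lower), and Static minus native cells 0.98 ± 0.14 (adjusted p = 7e-05, at least 1.17-fold). Foxc1, which acts in paraxial mesoderm and vessels, had 7.17, 6.46 and 6.85 in Static, 5.90, 5.80 and 5.73 in BM, 6.01, 5.89 and 5.58 in FL, and 6.33, 7.27 and 6.43 in undifferentiated ESCs, whose replicate 2 was the highest of all arrays. Static exceeded native cells by 1.01 ± 0.20 (adjusted p = 0.0013, no bound over 1) and undifferentiated ESCs by 0.15 (adjusted p = 0.74), while dynamic culture minus Static was -0.60 (adjusted p = 0.071). Undifferentiated replicate 2 also stood above the other 2 arrays of its group in Sox5 (7.21) and in Foxc2, a relative of Foxc1 (8.23, against 5.71 and 6.01).

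Mesoderm and endothelial genes moved with these members. Of 10 measured Foxc and Foxf mesoderm genes, 6 were higher in Static than in native cells and none lower (12.9% of all probes were higher), led by Bmp4 (a mesoderm-inducing ligand) at 5.34 (at least 18.5-fold), Pdgfra (a receptor of paraxial mesoderm) at 5.20 (at least 14.6-fold) and Hand1 (a factor of lateral mesoderm) at 2.03 (at least 1.73-fold), with a median of 1.16 beside -0.03 over all probes. Mesp1, among the 6, was below background on both sides. Dynamic culture against Static gave 1 higher and 4 lower (7.64% of all probes were higher and 6.55% lower). These were led by Pdgfra (-2.58), Hand1 (-1.92, at least 1.97-fold lower) and Hand2 (-1.75, at least 1.82-fold lower). Of 10 measured endothelial genes, 5 are also the endothelial markers, and 6 were above background on every array of a group. In Static, 5 of the 10 were higher and 1 lower than in native cells (12.9% of all probes were higher and 13.8% lower). They were led by Cldn5, a tight junction gene (3.59, at least 5.49-fold), Vcam1, an adhesion gene (-3.33), and Etv2, an Ets factor of blood and vessel precursors (2.93, at least 3.63-fold). In dynamic culture none was higher than in Static and 4 were lower (7.64% and 6.55% of all probes). These were led by Tek at -2.40, Cldn5 at -2.21 and Cdh5 at -1.41 (at least 1.34-fold). Against native cells, dynamic culture was also higher in 4 and lower in 1 of the 10 genes of each list (18.9% of all probes were higher and 18.2% lower). Markers of other cell types moved as well. Over 6 fibroblast markers the mean log2 signal was 5.82 to 6.21 in Synthecon, 5.94 to 6.21 in Spinner, 7.30, 9.78 and 8.27 in Static, 5.91 to 6.09 in BM, 5.86 to 6.05 in FL and 6.18, 7.92 and 6.54 in undifferentiated ESCs. Over 5 endothelial markers it was 6.69 to 6.97 in Synthecon, 7.14 to 7.29 in Spinner, 7.12, 8.12 and 9.24 in Static, 6.46 to 6.49 in BM, 6.44 to 6.82 in FL and 6.32 to 6.70 in undifferentiated ESCs. In Static, 3 of 6 fibroblast and 3 of 5 endothelial markers were above background on every array, with Postn and Kdr on none. Their part in the Sox5, Sox18, Foxf1a and Foxc1 values was not tested.

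Further members differed by less. Foxj2 had 7.36 to 7.86 in Synthecon cells, 7.37, 7.68 and 7.57 in Spinner and 8.03, 8.38 and 8.49 in Static, and dynamic culture minus Static was -0.74 ± 0.17 (adjusted p = 0.0076). Foxk1 (difference -0.64 ± 0.15, adjusted p = 0.0082) and Foxp4 (difference -0.42 ± 0.12, adjusted p = 0.027, at least 1.06-fold lower) were lower too. The Foxj2 and Foxk1 calls held under every single omission, and the Foxp4 call was lost under 5 of 17. Foxj1, the regulator of motile cilia, was higher by 0.38 ± 0.12 (adjusted p = 0.043), a call that 14 of 17 omissions ended.

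**Figure D5:**
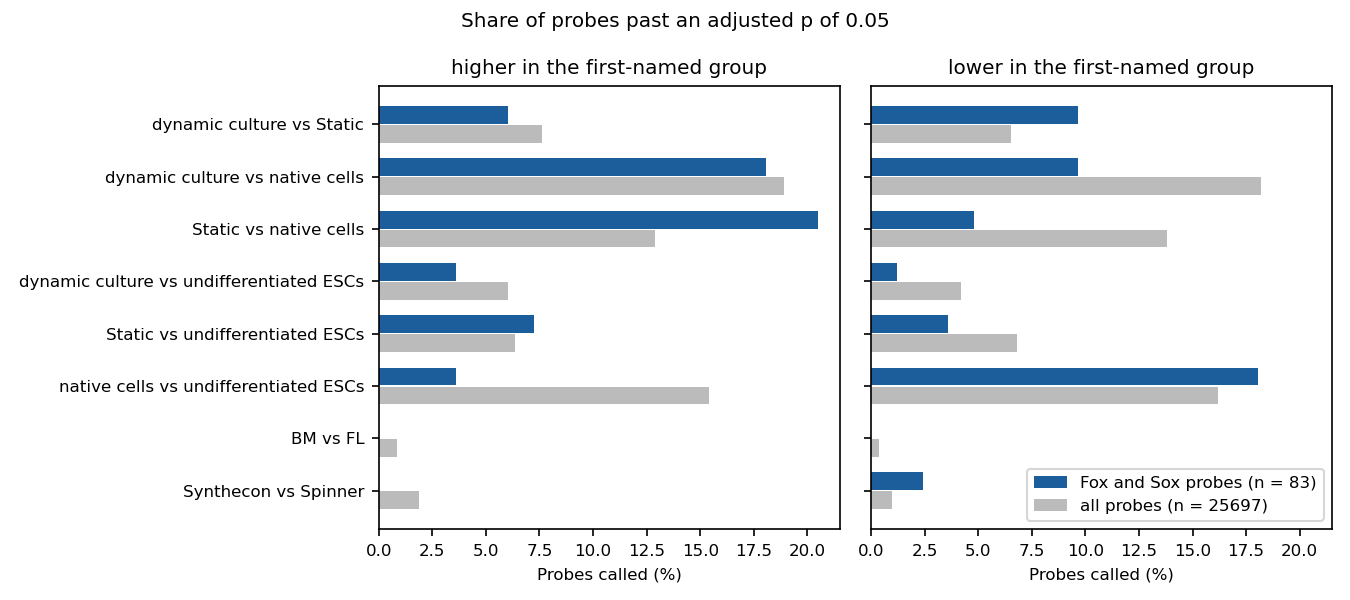
Share of probes called at an adjusted p of 0.05, higher (left) and lower (right) in the first-named group, for the 83 Fox and Sox probes (blue) and all 25697 probes (grey) in 8 comparisons. Members lie above the background in Static against native cells (20.5% higher, against 12.9%) and below it in native cells against undifferentiated ESCs (3.61% higher, against 15.4%).

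Against undifferentiated ESCs, dynamic culture differed in 4 member probes, 3 higher and 1 lower (background 10.3%, with 6.04% higher and 4.21% lower). They were Sox15, Foxd4, a Foxj3 probe and, lower, Foxp4 (-0.69 ± 0.12, adjusted p = 0.0017, at least 1.28-fold). For Foxq1 the difference was 1.32 with an interval of 0.22 to 2.41 (95%, adjusted p = 0.13), and for Sox21 0.91 with 0.21 to 1.61 (adjusted p = 0.097), neither of which passed. Static differed in 9 probes, 6 higher and 3 lower (background 13.2%, with 6.37% higher and 6.81% lower). Those higher were Sox5 (3 probes), Sox18 at 1.55 ± 0.44 (adjusted p = 0.030, at least 2.07-fold), Foxf1a at 1.21 ± 0.16 (adjusted p = 0.0003, at least 1.28-fold) and Foxj2 at 0.66 ± 0.18 (adjusted p = 0.027). The Sox18 call was lost without Static replicate 3 (0.87, adjusted p = 0.12) and without any of the undifferentiated arrays (adjusted p 0.053 to 0.098).

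Native cells against undifferentiated ESCs gave 18 called member probes, 3 higher and 15 lower (background 31.5%, with 15.4% higher and 16.2% lower). Lower in native cells were Foxq1 (-1.86 ± 0.49, adjusted p = 0.0083, at least 1.59-fold), Sox21 (-1.61 ± 0.32, adjusted p = 0.00091, at least 1.56-fold), Sox15 (-1.55 ± 0.44, adjusted p = 0.013, at least 1.20-fold), Foxh1 (-1.49 ± 0.16, adjusted p = 2.9e-06, at least 1.22-fold) and Foxa3 (-1.38 ± 0.35, adjusted p = 0.0058, at least 1.71-fold). The 3 higher probes were Foxo3a, Foxo6 and the dimmer Foxm1 probe, and the first 2 of these were below background in every group. With the slide as a block, Sox15 (-1.13, adjusted p = 0.14) and Foxq1 (-1.59, adjusted p = 0.070) were no longer called, nor was Foxq1 without undifferentiated replicate 3 (adjusted p = 0.052).

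No member probe was called between BM and FL (limma, background 1.23%, with 0.841% higher and 0.385% lower), by the two-sample test of the methods as well, while 9 had an unadjusted p under 0.05. The largest of these differences were Sox18 at -1.35 (95% interval -2.29 to -0.42, adjusted p = 0.23) and Foxo1 at -1.10 (95% interval -2.17 to -0.03, adjusted p = 0.48), and these intervals do not show that the populations are alike. The Sox18 values did not overlap, with 5.63 or less in BM and 6.18 or more in FL.

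The dynamic vessels differed from each other in 2 member probes, both lower in Synthecon (background 2.84%, with 1.86% higher and 0.988% lower). Foxd4, a forkhead gene of early embryos, had 5.66 to 6.10 in Synthecon cells (median 5.89), 7.21, 6.95 and 6.89 in Spinner, 5.91, 5.84 and 5.68 in Static, 5.60, 5.57 and 5.76 in BM, 5.71, 5.66 and 6.01 in FL, and 5.85, 5.67 and 5.53 in undifferentiated ESCs. It was above background on the 3 Spinner arrays alone, and Synthecon minus Spinner was -1.13 ± 0.14 (adjusted p = 0.00041), at least 1.23-fold lower. The differences called for Foxd4 between dynamic culture and Static, native cells or undifferentiated ESCs (0.64, 0.73 and 0.76) thus include a Synthecon mean from arrays below background. Sox13, a SoxD gene known in gamma delta T cells, had 6.25 to 7.31 in Synthecon cells (median 6.70), 8.30, 8.32 and 8.65 in Spinner, 8.54, 7.73 and 7.58 in Static, 6.87, 8.04 and 7.58 in BM, 7.66, 7.81 and 7.29 in FL, and 8.34, 7.51 and 8.20 in undifferentiated ESCs. The Synthecon arrays were the lowest group and overlapped only with BM replicate 1 and FL replicate 3. Synthecon minus Spinner was -1.68 ± 0.34 (adjusted p = 0.016), and the call was lost without either Synthecon set (adjusted p = 0.16 and 0.13) or Spinner replicate 3 (adjusted p = 0.061). On slide 2, which holds both vessels, the difference was -1.35 for Sox13 and -0.86 for Foxd4, over 2 Synthecon arrays and 1 Spinner array.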

How the data were processed

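Arrays were Illumina MouseRef-8 v2. The authors summarized beads, subtracted background, normalized by quantiles and log-transformed. The deposited log2 values entered all fits as they stand. The deposited bead intensity values on a linear scale, with background subtracted by the authors, served the alternatives. The deposited detection p-values, computed by the authors' software against negative control beads, set what is above background. Between 9785 and 11204 probes per array were, and the number of arrays limits the precision. The authors' own table of group means, ratios and test results was not used. Probes were placed on RefSeq (GRCm38.p6) by accession (82 of 83 members), and a gene was read from its brightest probe.

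Groups were fitted with limma 3.58.1 in R 4.3.3 (lmFit, eBayes with trend) over 17 samples, each Synthecon set being 1, with 11 residual degrees of freedom. All 6 groups shared 1 estimate of the spread per probe, also where the arrays of 1 group lay wider apart than the others. P-values were adjusted over 25697 probes by Benjamini-Hochberg (threshold 0.05). Slides 1 to 3 were read from the array titles. All undifferentiated ESC arrays lie on slide 1, all FL arrays on slide 2 and the Synthecon arrays on slides 2 and 3. Undifferentiated ESCs thus share no slide with FL or Synthecon cells, and differences between them cannot be read within a slide. The fit was tested on simulated data. Members, lists and tests were chosen with earlier results of these data known. Values are given for genes above background on every array of a group with group means at least 1.5 apart, and for Foxo1, Foxo3a, Foxo4, Foxp1, Foxp3, Foxm1, Sox4 and Sox6. The others named were chosen after their values were seen: the remaining genes above background on every array of a group (Sox12 among them) and Sox18, Foxf1a, Foxa1 and Foxc1. Of each list, up to 3 called members are named per comparison. Some genes are counted but not reported here by name.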

Additional observations from a re-analysis of the deposited data

Results flagged for a closer look

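Between dynamic and Static culture, the change from undifferentiated ESCs differed for 11 members by the contrast itself. The signed change in dynamic culture minus that in Static equals dynamic minus Static, which was 2.01 for Sox15, 1.46 for Sox21, 0.640 for Foxd4, 0.615 for Foxh1 and 0.381 for Foxj1. It was -2.08 for Sox5, -2.02 for Sox18, -0.997 for Foxf1a, -0.735 for Foxj2, -0.644 for Foxk1 and -0.416 for Foxp4. Between the dynamic vessels, Synthecon minus Spinner was -1.68 for Sox13 and -1.13 for Foxd4. For Foxm1, Synthecon replicate 2 lay apart from the other 7 arrays of its group, its gap to the nearest array taking 0.678 of the range. Chance sets 1 array apart in this way in about 1 of 20 groups of independent arrays, which these are not, and every named gene was screened.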

How the results depend on the processing

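Of the 58 called differences of named genes, 36 kept their call under all 17 omissions of a sample, 22 lost it under at least 1, and none changed sign. Counts of called members with a sample left out ran from 22 to 29 over the 6 groups, 14 to 24 for dynamic culture against native cells, 17 to 25 for Static against native cells, 6 to 16 for dynamic culture against Static, 2 to 6 and 3 to 12 for dynamic culture and Static against undifferentiated ESCs, 12 to 18 for native cells against them, 0 to 1 for BM against FL, and 1 to 3 for Synthecon against Spinner. With all 8 Synthecon arrays as samples, dynamic culture against undifferentiated ESCs gave 8 calls (5 higher) and Synthecon against Spinner 6 (2 higher). Quantile normalization repeated on floored intensities gave 11 for native cells against undifferentiated ESCs. It gave 2 higher and 3 lower for dynamic culture against undifferentiated ESCs (3 and 1 before). Median centring after a floor of 16 gave 65 over the 6 groups, 60 for dynamic culture against native cells, 48 and 42 for dynamic culture and Static against undifferentiated ESCs, 44 for Synthecon against Spinner and 8 for dynamic culture against Static. The splits were 58 higher and 2 lower for dynamic culture against native cells (15 and 8 before), 15 and 0 for Static against native cells (17 and 4), 46 and 2 and 40 and 2 for dynamic culture and Static against undifferentiated ESCs (3 and 1, and 6 and 3), and 42 and 2 for Synthecon against Spinner (0 and 2). By its construction, it puts the floor at another level on each array, which moved the median of all probes by up to 0.73, and 7 differences of probes at the floor changed sign: Foxo3a (0.53 for dynamic culture minus native cells, 0.95 for Synthecon minus Spinner), Foxo4 (0.53 for dynamic culture minus native cells, 0.91 for dynamic culture minus undifferentiated ESCs), Foxp3 (0.49) and Sox6 (0.49) for dynamic culture minus native cells, and Sox6 (0.61) for Static minus undifferentiated ESCs. Scaling before the floor, chosen after seeing the data, gave 18 over the 6 groups, 10 for native cells against undifferentiated ESCs, 14 higher and 2 lower for dynamic culture against native cells, 5 and 1 for Static against undifferentiated ESCs, and 1 and 2 for Synthecon against Spinner. Keeping only probes above background gave 13 for Static against native cells and 10 for native cells against undifferentiated ESCs. The slide as a block gave 5 for Static and 11 for native cells against undifferentiated ESCs. Fitting only the groups compared gave 1 for Static against undifferentiated ESCs and 7 for Synthecon against Spinner. The two-sample test of the methods gave 0 for dynamic culture against Static, 12 for Static against native cells, 1 and 0 for dynamic culture and Static against undifferentiated ESCs, and 0 for Synthecon against Spinner. Whether the replicate numbers pair samples was not settled. Of 30 same-numbered pairs, 9 correlated over 0.1 (-0.155 to 0.271), while pairs of different numbers ran from -0.297 to 0.251. The replicate block gave 26 over the 6 groups, 15 for dynamic culture against Static, 22 and 21 for dynamic culture and Static against native cells, and 2 for Synthecon against Spinner. The cause of these moves was not tested unless named. Signal over background limits 50 of the 83 probes, which no array read above it.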
